A study of Rattus norvegicus with 12 samples.

Results

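The genes followed here belong to inflammatory signalling. They are the chemokines Ccl2 (ENSRNOG00000007159) and Cxcl1 (ENSRNOG00000002802), the adhesion molecule Icam1 (ENSRNOG00000020679), the NF-kB inhibitor Nfkbia (ENSRNOG00000007390), the transcription factor Stat3 (ENSRNOG00000019742) and its inhibitor Socs3 (ENSRNOG00000002946). They were taken by Ensembl identifier from a fixed list, 6 of the 32883 genes in the deposited count table, and all were kept whatever their values. The genes and tests were chosen with earlier results of these data known. All 6 had counts and all 6 passed the low-count filter that left 10491 genes for testing. The count table names genes by identifier alone, and the symbols are those of the list. The rat reference table, with 47357 genes, holds 0 Ensembl identifiers, so the pairing of symbol and identifier was not checked against it.

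The cells were neonatal cardiomyocytes, heart muscle cells prepared from the ventricles of Wistar rats with a labelled age of 2 days. They were mock treated or exposed for 24 h to phenylephrine (PE), which activates alpha-adrenergic receptors and drives cardiomyocyte growth. The RNA-binding protein Cpeb4 was precipitated with an antibody and the bound RNA was recovered. This RNA is called IP here, and total RNA served as input. The 4 groups, namely mock input, PE input, mock IP and PE IP, held 3 libraries each, and the labels name no altered genotype. The design asks which transcripts are over- or under-represented in the Cpeb4 precipitate and what PE changes. A control precipitate lacking this antibody was not analysed here, and the labelled cell type was not checked against marker genes, since their identifiers are not paired with symbols.

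NF-kB is a transcription factor held in the cytoplasm by IκBα, the protein that Nfkbia encodes. Inflammatory signals lead to the breakdown of IκBα, and NF-kB then switches on chemokine and adhesion genes as well as Nfkbia itself, which closes a negative feedback loop. Stat3 relays signals of the interleukin-6 family of cytokines, and Socs3 is induced by Stat3 and shuts that pathway off. Many mRNAs of this kind are short-lived and carry AU-rich elements near their 3′ ends, and Cpeb4 itself binds U-rich elements in 3′ ends. No 3′ end sequences were analysed here.

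Library totals lay between 1423334 and 30216559 counts, a 21.2-fold span. Levels are given in CPM, counts divided by a library total that is scaled with TMM factors and expressed per 1000000, and the libraries come from a 3′ end kit, so that a CPM value counts transcript ends and is not divided by gene length. Input mock replicate 2, input PE replicate 1 and IP mock replicate 2 stood apart from the rest. Of genes with a mean of 5 to 10 CPM in the other 11 libraries, 27.7%, 26.9% and 37.3% had 0 counts in these 3 libraries, against 1.15% to 14.3% in the remaining 9. Fold changes of Ccl2, Cxcl1, Icam1, Stat3 and Nfkbia are therefore also given without input and IP of mock replicate 2 and PE replicate 1. In that fit 5 of the 6 genes passed the filter, and Socs3 did not. The labels do not state whether replicates are separate cultures or animals, so each p-value reflects the spread among these libraries alone, which may be technical.

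Of the 6 genes only Nfkbia passed the test between IP and input. It did so only averaged over mock and PE cells (edgeR adjusted p = 0.020), where 2.26% of all genes were called higher. Within mock cells and within PE cells it did not pass (edgeR adjusted p = 0.21 and 0.16). An exact permutation test of the average gave 0.075 after adjustment over all genes. The averaged edgeR call was lost in 6 of the 12 fits that each left out a single library. Every Nfkbia level in the Cpeb4 precipitates lay above every level in the inputs, as for 1.67% of genes tested. Cxcl1 had 0 counts in all 3 mock inputs and counts in all 3 PE inputs. Ccl2 was higher in each PE input than in any mock input. PE input lay above mock input without overlap for 5.67% of genes tested. Neither chemokine passed the test of PE against mock after adjustment over all genes. Icam1, Stat3 and Socs3 passed none of the tests as reported. The levels of all 6 genes in all 12 libraries are shown in the plot of levels by group.

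**Figure D1:**
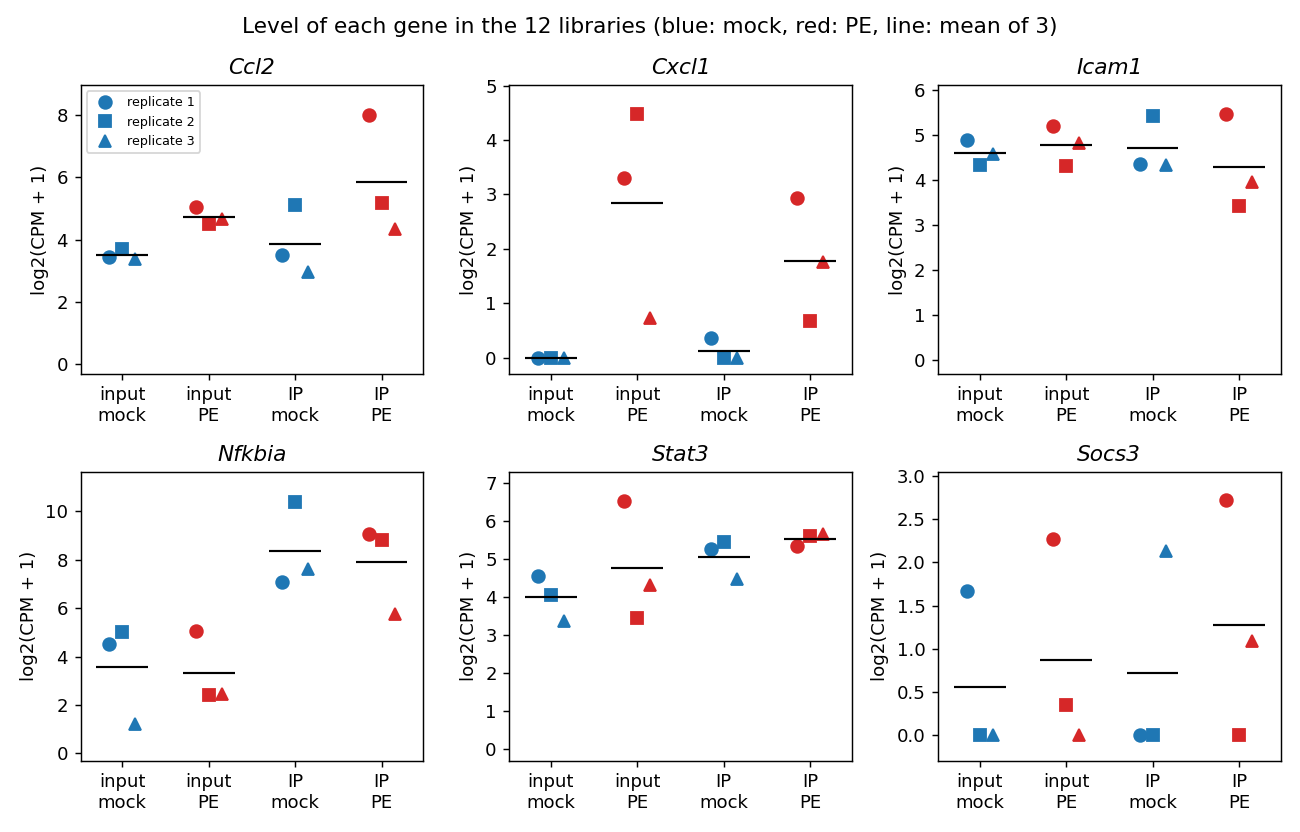
Level of each gene on the log2(CPM + 1) scale (vertical axis) in input and IP libraries of mock (blue) and PE (red) cells, with 1 point per library, the marker shape giving the replicate number and the line the mean of 3 libraries. The 6 IP libraries of Nfkbia all lie above its 6 inputs, and Cxcl1 sits at 0 in 5 of 6 mock libraries.

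The proximal promoters of Nfkbia and Cxcl1 were picked for display because both hold a match to the NF-kB consensus, the site through which NF-kB is known to act on such genes. Whether NF-kB has a part in the levels of either gene here was not tested. The 120 bases before the annotated transcription start are given 5′ to 3′ on the coding strand, from RefSeq on build GRCr8, with the matches in capitals. Cxcl1 lies at chr14:17479322-17479441 on the minus strand and Nfkbia at chr6:78597073-78597192 on the minus strand.
Cxcl1: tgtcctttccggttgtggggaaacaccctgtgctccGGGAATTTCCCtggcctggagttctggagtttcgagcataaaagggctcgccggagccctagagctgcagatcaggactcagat
Nfkbia: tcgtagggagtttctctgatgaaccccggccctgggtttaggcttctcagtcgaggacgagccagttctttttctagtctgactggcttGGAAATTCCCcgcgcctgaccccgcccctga
The capitals of Cxcl1 hold 2 overlapping matches, 1 on each strand, from base -84 to base -74, and those of Nfkbia 1 match on the opposite strand from base -31 to base -22, counted back from the start. The consensus was searched on both strands over 300 bases, from 250 before to 50 after the start, and 7.51% of 33469 rat promoters hold a match. The match is a description of the sequence and was not measured as a binding site. The table held entries for 5 of the 6 genes, all but Ccl2, and 3 of these 5 hold a match, namely Cxcl1, Nfkbia and Socs3, while Icam1 and Stat3 hold 0.

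The chemokine Ccl2 attracts monocytes to injured tissue. Its level in mock input was 9.90, 12.1 and 9.42 CPM in replicates 1, 2 and 3, a mean of 10.5 ± 1.43 (SD, n = 3). In PE input it was 31.9, 21.8 and 24.1 CPM, a mean of 25.9 ± 5.30 (n = 3). The lowest PE input thus lay above the highest mock input, as it did for 5.67% of all genes tested. The log2 fold change of PE against mock in input was 1.29 (SE 0.82, edgeR quasi-likelihood test, adjusted p = 1.00), and with 3 libraries against 3 an exact permutation test, here and below two-sided, gave p = 0.1, the smallest it can give. In bulk RNA, more cells that express Ccl2 and more Ccl2 RNA per cell cannot be told apart.

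In the precipitates Ccl2 measured 10.3, 33.8 and 6.82 CPM in mock cells, a mean of 17.0 ± 14.7 (SD, n = 3). In PE cells it measured 255, 34.9 and 19.4 CPM, a mean of 103 ± 132 (n = 3). IP PE replicate 1 stood far above the other 5 precipitates, and the ranges of mock and PE overlapped. The log2 fold change of PE against mock in IP was 2.60 (SE 0.83, edgeR adjusted p = 0.73), and it was 0.67 without IP PE replicate 1. Averaged over input and IP, the fold change of Ccl2 was 1.95 (SE 0.58, edgeR adjusted p = 0.38) on the log2 scale. An exact permutation of libraries within input and within IP gave p = 0.01, which was 0.36 after Benjamini-Hochberg adjustment over all genes. This permutation takes same-numbered input and IP as unrelated, and its p may be too small if they share cells. The averaged value was 0.98 without IP PE replicate 1, and 1.45 with mock replicate 2 and PE replicate 1 removed from input and IP (edgeR adjusted p = 0.14). Without the low-count filter Ccl2 passed in IP and on average, with nearly unchanged fold changes of 2.60 and 1.95 (edgeR adjusted p = 0.029 and 0.0041).

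Between precipitate and input Ccl2 did not pass the test. IP was higher than the same-numbered input in 4 of 6 pairs, with the largest ratio, 7.98, in PE replicate 1. The log2 fold change of IP against input was 0.69 (SE 0.81) in mock cells, 1.99 (SE 0.81) in PE cells and 1.34 (SE 0.57) on average (edgeR adjusted p = 0.90, 0.32 and 0.22). Without the low-count filter it passed in PE cells and on average (edgeR adjusted p = 0.043 and 0.033). Leaving out IP PE replicate 1 alone gave 0.062 in PE cells and 0.38 on average. Without mock replicate 2 and PE replicate 1 the average was -0.01, so its direction turned. Scaled by library totals the average was 2.43 and passed (edgeR adjusted p = 0.0091), a scaling under which the median of all genes moved from 0.16 to 1.31. In mean level, IP of PE cells came first, then input of PE cells, IP of mock cells and input of mock cells, and each of these neighbours overlapped in range.

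Cxcl1, a chemokine that attracts neutrophils, was scarce, and its counts lay almost wholly in PE libraries. It had 0 counts in mock input replicates 1, 2 and 3. A count of 0 allows up to 3 counts, which is 0.725, 0.685 and 4.04 CPM in these libraries, and this limit covers counting error only. PE input held 44, 79 and 11 counts, or 8.89, 21.3 and 0.657 CPM. Every PE input thus held counts where no mock input did. PE input lay above mock input without overlap for 5.67% of genes tested. The lowest PE value of Cxcl1, from the deepest input, still lay below what 0 counts allow in each of the mock libraries. Pooled over each group, PE input was at least 16.3-fold higher, taking 3 counts for the whole mock group as its floor. This bound moved to 9.0-fold without input mock replicate 1, to 8.59-fold without input mock replicate 2, to 7.83-fold without input PE replicate 2 and to 43.9-fold without input PE replicate 3.

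The precipitates showed the same order for Cxcl1. Mock IP held 2, 0 and 0 counts (0.278, 0 and 0 CPM) and PE IP held 317, 2 and 19 counts (6.65, 0.591 and 2.37 CPM). Pooled over each group the ratio was 156, with an exact binomial 95% interval of 43.0 to 1297 for counting error. Leaving out IP PE replicate 1 gave 50.4. Leaving out mock precipitate 2 or 3 gave 82.2 or 94.9, and leaving out mock precipitate 1, which held the 2 counts, gave at least 90.6-fold. Pooling weights each library by its size. Unweighted, the means were 3.20 CPM in PE IP and 0.0926 CPM in mock IP. The edgeR fold change of PE against mock in IP was 38.7 (log2 5.27, SE 2.42, adjusted p = 0.90), below the pooled interval. The IP libraries of PE cells lay above those of mock cells without overlap, as for 8.61% of genes tested. Yet the lowest PE precipitate and the highest mock precipitate held 2 counts each. Library size alone sets these apart, so the order within IP is not resolved there. All 6 PE libraries, input and IP together, had higher CPM than all 6 mock libraries, as for 0.639% of genes tested. At this depth the order is not resolved for every library, since input PE replicate 3 and IP PE replicate 2, at 0.657 and 0.591 CPM, lay below what 0 counts allow in the mock inputs. The exact permutation test over both RNA pools gave p = 0.005, the smallest it can give, which the order in CPM fixes, and 0.27 after adjustment over all genes. It shuffles input and IP separately, as if same-numbered libraries were unrelated. If these share cells, the comparison is 3 against 3, where the smallest p is 0.1. The edgeR test of the average did not pass either (adjusted p = 0.33), whereas the DESeq2 Wald test called it.

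Within PE cells Cxcl1 was not separated between IP and input. The ratio of IP to same-numbered input was 0.747 in replicate 1, 0.0278 in replicate 2 and 3.60 in replicate 3, and the log2 fold change was -1.66 (SE 2.02, edgeR adjusted p = 0.92). It was -2.90 with mock replicate 2 and PE replicate 1 removed (edgeR adjusted p = 0.49). In mock cells both groups were at or under 3 counts, and no ratio is given. In mean level, input of PE cells came before IP of PE cells with overlapping ranges, and both mock groups followed, IP of mock cells not overlapping with IP of PE cells. The nearest libraries of those 2 IP groups held 2 counts each and differ in CPM by library size alone.

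Icam1, a surface protein that lets leukocytes adhere, did not separate any of the groups. It measured 28.5, 19.2 and 22.9 CPM in mock input and 36.0, 18.9 and 27.3 CPM in PE input. In the precipitates it measured 19.5, 42.1 and 19.1 CPM in mock cells and 42.9, 9.75 and 14.6 CPM in PE cells. All 4 groups overlapped, with means between 22.4 and 27.4 CPM. The averaged log2 fold changes were -0.04 (SE 0.44) for IP against input and -0.02 (SE 0.44) for PE against mock (edgeR adjusted p = 0.99 and 1.00). Both turned positive when libraries were scaled by their totals, to 1.09 and 0.22. Under that scaling the medians of all genes were 1.31 and 0.28, so Icam1 lay below both. With mock replicate 2 and PE replicate 1 removed the Icam1 values were -0.71 and -0.42 (edgeR adjusted p = 0.24 and 0.71).

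Stat3 carries cytokine signals from the membrane to the nucleus. It measured 22.7, 15.5 and 9.42 CPM in mock input and 90.7, 9.97 and 19.0 CPM in PE input, where replicate 1 stood apart. In the precipitates it measured 37.2, 42.5 and 21.1 CPM in mock cells and 39.8, 47.9 and 49.2 CPM in PE cells, the tightest group of the 4 with a mean of 45.6 ± 5.08 (SD, n = 3). IP exceeded the same-numbered input in 5 of 6 pairs, with ratios of 1.64 to 4.80, and PE replicate 1 was the exception at 0.439.

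For Stat3 the averaged log2 fold change of IP against input was 0.62 (SE 0.47, edgeR adjusted p = 0.57). With mock replicate 2 and PE replicate 1 removed from input and IP it was 1.21 (SE 0.37) and passed (edgeR adjusted p = 0.034), where 14.3% of all genes were called. Scaled by library totals it was 1.64 and passed (edgeR adjusted p = 0.031). That scaling called 27.5% of all genes, and the median of all genes was 1.31. In the fit as reported, the log2 fold change of Stat3 was 1.05 (SE 0.68) in mock cells and 0.19 (SE 0.66) in PE cells (edgeR adjusted p = 0.65 and 0.99). The PE value was 1.63 without input PE replicate 1. PE against mock gave 1.30 (SE 0.68) in input and 0.44 (SE 0.66) in IP (edgeR adjusted p = 1.00 for both). The input value rested on PE replicate 1, without which it was -0.15. Mean levels ranked in the order IP of PE cells, input of PE cells, IP of mock cells and input of mock cells, with all neighbours overlapping.

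Nfkbia showed the contrast between precipitate and input. In mock input it measured 21.7, 31.1 and 1.35 CPM, a mean of 18.0 ± 15.2 (SD, n = 3), the last value resting on 1 count. In mock IP it measured 133, 1349 and 197 CPM, a mean of 560 ± 684 (n = 3). PE input held 32.1, 4.31 and 4.54 CPM, a mean of 13.7 ± 16 (n = 3), and PE IP held 544, 456 and 52.9 CPM, a mean of 351 ± 262 (n = 3). The lowest precipitate, 52.9 CPM, lay above the highest input, 32.1 CPM, so that all 6 IP libraries exceeded all 6 inputs. IP lay above input without overlap for 9.96% of genes tested in mock cells, 12.9% in PE cells and 1.67% in both. Levels spread widely within every group, and the mock and PE ranges overlapped within IP and within input.

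Averaged over both treatments, Nfkbia was 27.3-fold higher in IP than in input. On the log2 scale this was 4.77 with an SE of 1.00 (edgeR adjusted p = 0.020). It was the 148th highest log2 fold change of 10491 genes. This was 1 of 6 genes called, and as higher, where 2.26% of all genes tested were called higher and 5.88% in either direction. The members' median log2 fold change was 0.66, and 0.63 without Cxcl1, against 0.16 for all genes. An exact permutation of libraries within each treatment gave p = 0.005 for Nfkbia, the smallest it can give, and 0.075 after adjustment over all genes. That minimum follows from all 6 IP libraries lying above all 6 inputs and adds nothing to it. For the same reason IP exceeded the same-numbered input in 6 of 6 pairs. The ratios were 6.14, 43.4 and 147 in mock replicates 1, 2 and 3 and 16.9, 106 and 11.7 in PE replicates 1, 2 and 3.

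**Figure D2:**
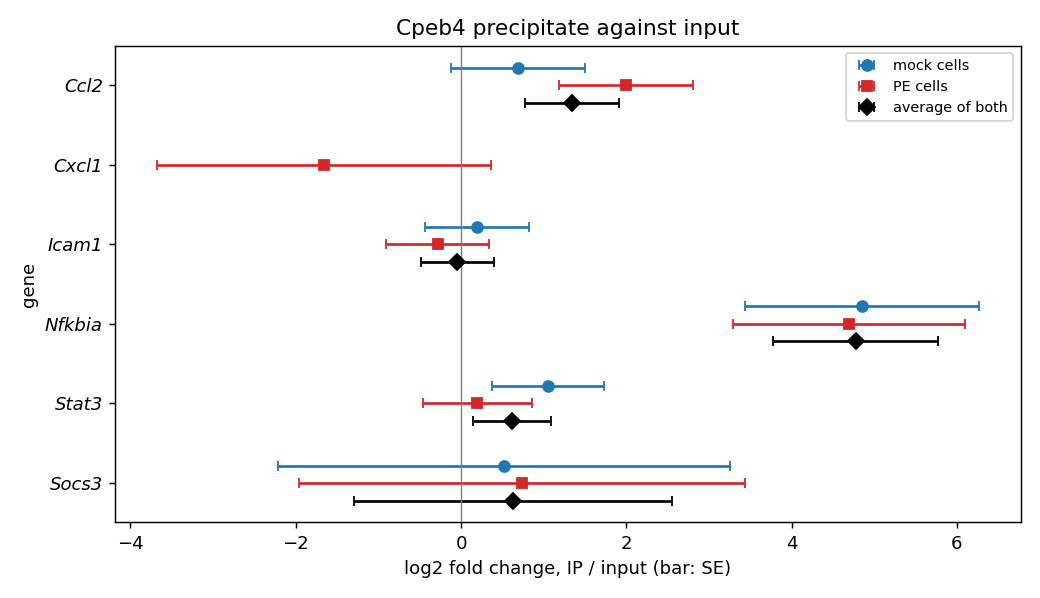
Log2 fold change of Cpeb4 precipitate against input (horizontal axis, bars show the SE) for each gene (vertical axis) in mock cells, in PE cells and averaged over both. Nfkbia lies between 4.69 and 4.85, and the averages of Ccl2, Icam1, Stat3 and Socs3 lie between -0.04 and 1.34. For Cxcl1 the value in PE cells alone is drawn, since mock inputs had 0 counts.

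Taken by treatment, the log2 fold change of Nfkbia was 4.85 (SE 1.42) in mock cells and 4.69 (SE 1.41) in PE cells, and neither passed (edgeR adjusted p = 0.21 and 0.16). In mock cells 0 of the 6 genes passed with edgeR, where 0.743% of all genes did, 1 had an unadjusted p under 0.05 (10.8% of all genes) and 1 passed with the DESeq2 Wald test (4.06%). In PE cells 0 passed, where 2.11% of all genes did, with 2 at an unadjusted p under 0.05 (11.7%) and 1 by DESeq2 (6.39%). The gene passed by DESeq2 was Nfkbia in both (adjusted p = 0.00055 and 0.00051). Leaving out IP mock replicate 2 gave 3.09 in mock cells, and leaving out input PE replicate 1 gave 6.27 in PE cells. With both mock replicate 2 and PE replicate 1 removed, Nfkbia stood at 3.49 in mock cells and 5.82 in PE cells, of which the latter passed (edgeR adjusted p = 0.15 and 0.022). With same-numbered input and IP as a replicate block, Nfkbia also passed in mock cells (log2 fold change 4.55, edgeR adjusted p = 0.031). The difference in enrichment between PE and mock cells was -0.16 (SE 1.73, edgeR adjusted p = 1.00). For that difference 0 of the 6 genes passed with edgeR, where 0.0% of all genes did, 0 of the 6 had an unadjusted p under 0.05 (2.58%) and DESeq2 called 0 of them (0.0263%).

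The averaged call of Nfkbia held in 6 of 12 fits that left out 1 library. It was lost without input mock replicates 1 and 3 (edgeR adjusted p = 0.10 and 0.053), input PE replicates 2 and 3 (0.082 and 0.095) and IP PE replicates 1 and 2 (0.060 and 0.059). The log2 fold change was lowest, 3.89, when IP mock replicate 2 was left out and highest, 5.54, when input PE replicate 1 was. Mock replicate 2 and PE replicate 1 held the highest Nfkbia levels of their groups in input and in IP alike, and 3 of those 4 libraries had many genes at 0. Without all 4 it was 4.65 on the log2 scale (edgeR adjusted p = 0.0070).

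**Figure D3:**
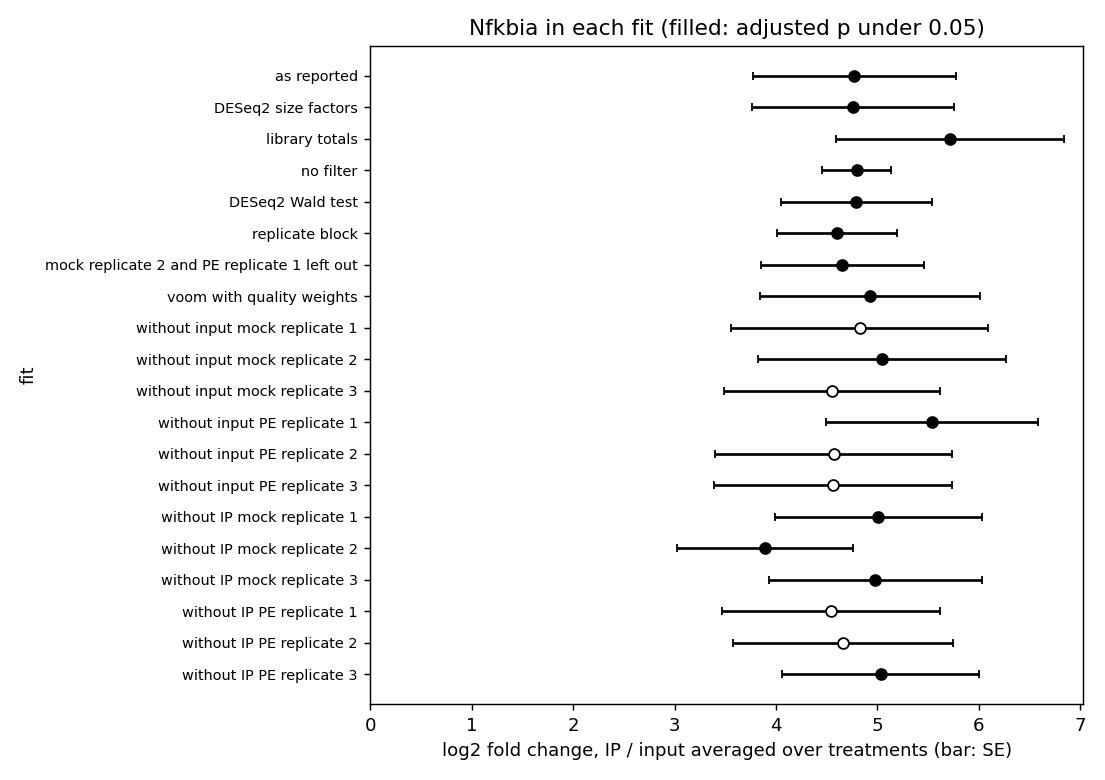
Averaged log2 fold change of Nfkbia in IP against input (horizontal axis, bars show the SE) in the fit as reported and under each alternative (vertical axis). All 20 values are positive, and open circles mark the 6 fits in which the adjusted p was 0.05 or more.

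PE did not separate the Nfkbia levels. The log2 fold change of PE against mock was -0.51 (SE 1.24) in input and -0.67 (SE 1.2) in IP (edgeR adjusted p = 1.00 for both). Each turned positive when the mock replicate 2 library of the same RNA pool was left out, to 0.02 in input and 1.09 in IP. In mean level both IP groups came first, with no overlap with the inputs below them.

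Socs3, the inhibitor that Stat3 induces, was close to the limit of detection. It had 0 counts in 6 of 12 libraries. Input held 9, 0 and 0 counts in mock cells and 19, 1 and 0 in PE cells, and IP held 0, 0 and 73 in mock cells and 268, 0 and 9 in PE cells. The highest level, 5.62 CPM, was in IP PE replicate 1. Every group had a library at 0, and all 4 groups overlapped. The averaged log2 fold changes, 0.63 (SE 1.92) for IP against input and 0.88 (SE 1.93) for PE against mock, were smaller than their errors (edgeR adjusted p = 0.94 and 1.00).

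Across the 6 genes, PE against mock called 0 members in input, where 0.00953% of all genes were called, 0 in IP (0.00953%) and 0 on average (0.124%), by edgeR at an adjusted p under 0.05. At an unadjusted p under 0.05 there were 1, 2 and 2 members, where 3.57%, 5.54% and 6.51% of all genes were. The DESeq2 Wald test called 0, 0 and 1, where it called 0.247%, 0.536% and 1.18% of all genes. The members' median averaged log2 fold change was 0.88, and 0.87 without Cxcl1, against 0.08 for all genes. The 2 chemokines had the lowest unadjusted p-values, 0.0029 for Cxcl1 and 0.0043 for Ccl2. Input of PE cells and IP of PE cells are compared with their own mock groups, and no library is shared between these 2 comparisons. Same-numbered input and IP may still come from the same cells, so the 2 comparisons may not be independent.

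**Figure D4:**
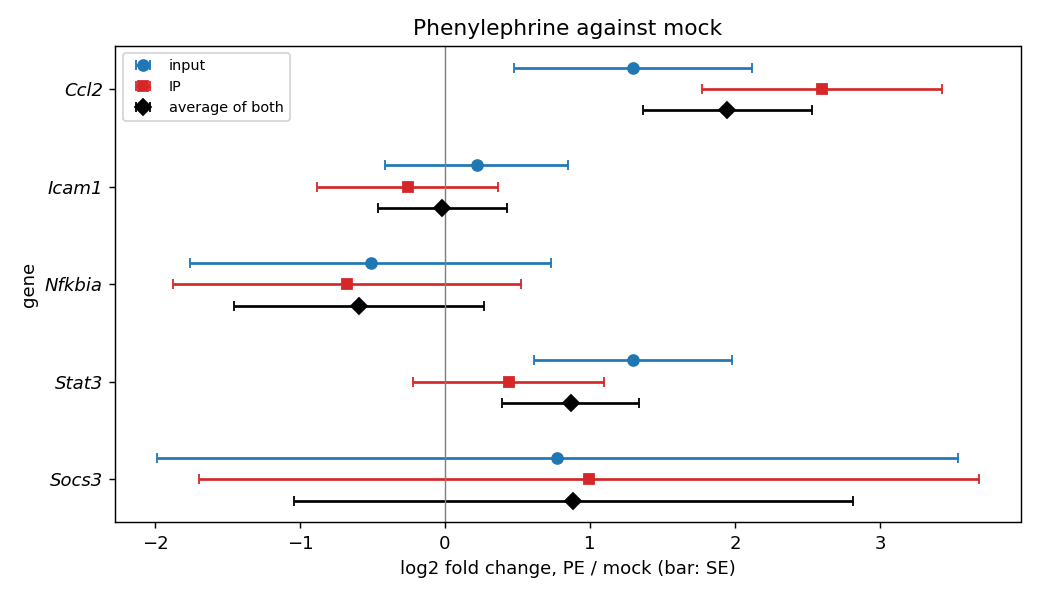
Log2 fold change of PE against mock (horizontal axis, bars show the SE) for 5 genes (vertical axis) in input, in IP and averaged over both. Ccl2 lies between 1.29 and 2.60, the Icam1, Nfkbia and Socs3 bars and the Stat3 bar in IP cross 0, and Cxcl1 is left out because mock inputs had 0 counts.

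For each gene the most similar pattern over the 12 libraries was sought among genes averaging 10 CPM or more. The highest Pearson r of log2(CPM + 1) was 0.96, between Nfkbia and ENSRNOG00000010889, which averaged 16.2 and 6.83 CPM in mock and PE input and 66.6 and 61.9 CPM in mock and PE IP. The next was 0.95, between Ccl2 and ENSRNOG00000010194, with 191 and 241 CPM in input and 203 and 377 CPM in IP. For the other 4 genes the best r lay between 0.78 and 0.89. These values are the highest of at least 5864 genes each, the libraries fall into 4 groups, and the r is given as a description.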

How the data were processed

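Raw counts per gene were deposited by the authors as 1 table without normalization. Per the submitters' processing notes, the build was Rnor_6.0 and the tools were STAR 2.7, cutadapt 2.5, DESeq2 and featureCounts 1.6.4. Neither the strand setting nor other counting options were given in the sources used here, so reads of overlapping or antisense genes cannot be told apart. Per the labels' protocols, a 3′ end kit with 15 cycles was applied to 200 ng of RNA. Reads are therefore counted only where the annotation covers a gene's 3′ end. The table's 32883 blank lines were skipped, and 0 columns were left unmapped. The genes, lists and tests were chosen with earlier results of these data known. The pathway genes and the cell type markers listed for this work were not tested, as their identifiers could not be named.

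Counts were tested with edgeR 4.0.16 in R 4.3.3 (TMM factors, filterByExpr, robust dispersion, quasi-likelihood F-test, 1 fit of 4 group means over 12 libraries, Benjamini-Hochberg adjustment over 10491 genes, threshold 0.05). The SE is the log2 fold change divided by the square root of F. IP against input is relative to TMM scaling and gives no amount of RNA recovered. Exact permutation tests used log2(CPM + 1), with 20 arrangements for 3 against 3 and 400 within strata. For averaged PE against mock, these tests and the edgeR fit treat same-numbered input and IP as independent libraries. Alternatives were DESeq2 size factors, library totals, no filter, the DESeq2 1.42.0 Wald test, the libraries of a comparison alone, a replicate block, limma 3.58.1 voom with quality weights, leaving out 4 libraries and leaving out each library. For Cxcl1, leaving out single libraries from the pooled ratio was added after the data had been seen. On counts simulated with the spread of these libraries, the averaged IP contrast recovered 80 of 100 genes changed 16-fold and 46 of 100 changed 4-fold among 10491 genes. Within mock cells IP against input recovered 52 and 16 of them, and within PE cells 58 and 19. Unchanged genes called numbered 9 on average, 6 in mock cells and 3 in PE cells. The changed genes had a mean of at least 10 CPM, which Cxcl1 and Socs3 do not reach. No change between PE and mock was simulated, so recovery there is not known.

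Same-numbered input and IP deviated together from their group means in mock cells, with correlations across genes of 0.16, 0.26 and 0.12. Each was over 0.1, the limit set for pairing. The fit as reported does not use pairing, which enters only in the replicate block. Input and IP of different numbers were not compared, so these correlations do not establish pairing by number. In PE cells 1 of 3 pairs, at 0.02, did not reach that limit. Genes named are the 6 members and, for likeness, at most 2 identifiers with the highest Pearson r.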

Additional observations from a re-analysis of the deposited data

How the results depend on the processing

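Counts of members called were 0 in mock cells, 0 in PE cells and 1 on average for IP against input as reported. The share of all genes called stands in brackets. In mock cells (0.743% as reported) library totals (8.12%), no filter (2.2%), the DESeq2 Wald test (4.06%) and the replicate block (2.59%) each gave 1. In PE cells (2.11% as reported) no filter gave 2 (2.68%), the Wald test 1 (6.39%), the replicate block 1 (4.01%) and leaving out mock replicate 2 and PE replicate 1 gave 2 (9.08%). On average (5.88% as reported) library totals gave 3 (27.5%), no filter 2 (5.71%) and leaving out those libraries 2 (14.3%), and single libraries left out gave 0 to 1. For PE against mock, with 0 members as reported, no filter gave 1 in IP (0.19%) and 1 on average (0.456%), both Ccl2, and the Wald test 1 on average (1.18%), Cxcl1. Library totals moved the median averaged IP log2 fold change of all genes from 0.16 to 1.31, by construction without composition factors. The cause of the other moves was not tested.

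The log2 fold changes that changed direction had not passed as reported, and ran up to 1.34 for Ccl2 and 1.30 for Stat3. Leaving out mock replicate 2 and PE replicate 1 gave Ccl2 -0.22 in mock IP against input and -0.0055 on average, Stat3 -0.23 for PE against mock in input, Nfkbia 0.63 for PE against mock in IP and 2.34 for the difference of enrichment. Voom gave Ccl2 -0.26 in mock, Nfkbia 0.18 for PE against mock in IP and 0.62 for the difference, and Socs3 -0.83 for averaged PE against mock. The replicate block gave 0.086 for the Nfkbia difference. Library totals gave Icam1 1.09 for averaged IP against input and 0.22 for averaged PE against mock, and mean log2(CPM + 1) differences of 0.91 and 0.064. The median log2 fold changes of all genes under library totals were 1.31 and 0.28.

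With single libraries left out, IP against input ranged from -0.31 to 1.07 for Ccl2 in mock cells, -0.26 to 1.63 for Stat3 in PE cells, and on average from -0.49 to 0.13 for Icam1 and -2.73 to 3.82 for Socs3. PE against mock ranged from -2.14 to 0.021 for Nfkbia and -0.15 to 1.75 for Stat3 in input, -1.14 to 1.09 for Nfkbia in IP, and on average from -0.46 to 0.22 for Icam1, -1.40 to 0.28 for Nfkbia and -0.84 to 4.25 for Socs3. The Nfkbia difference ranged from -0.70 to 1.61. Pairing by number did not meet the rule for PE against mock or in PE cells, so the block there is a hint only. In PE cells it gave Nfkbia a log2 fold change of 4.64 (edgeR adjusted p = 0.018). Low counts limit Cxcl1 and Socs3 most.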

Other observations

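The spread between libraries differed among the genes. As estimated by edgeR, the biological coefficient of variation was 0.58 for Icam1, 0.60 for Stat3, 0.68 for Ccl2, 0.98 for Nfkbia, 1.48 for Cxcl1 and 2.33 for Socs3, against a median of 0.90 over all genes tested. Icam1, Stat3 and Ccl2 were thus measured with less spread than the median gene, and Nfkbia, Cxcl1 and Socs3 with more. In the RefSeq promoter windows, Socs3 also held the NF-kB consensus, GGGGTGCCCC at bases -161 to -152, which matches on both strands. Icam1 held TTCCGGGAA at bases -107 to -99, a match to TTCNNNGAA, the element that STAT factors are known to bind, which 8.87% of rat promoters hold on either strand. The windows of Cxcl1, Nfkbia and Socs3 held no match to TTCNNNGAA, and the Stat3 window held neither motif.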
